A study of Mus musculus with 8 samples.

Results

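The genes described here are 45 chaperones, cochaperones, heat shock factors and mitochondrial proteases. They were listed by name, with earlier results of these data known. All 45 were among the 15948 genes of the deposited table. They were compared in mouse kidney RNA from a study whose title names systemic and proximal tubule knockout of Arhgef11. The 5 libraries labelled Sglt2Cre_DOCA are called controls, and the 3 labelled Arhgef11Sglt2_DOCA are called Arhgef11Sglt2 libraries. Sglt2 carries glucose in the first segments of the proximal tubule, and Sglt2Cre names a Cre driven from that gene's promoter. DOCA, the mineralocorticoid deoxycorticosterone acetate in hypertension research, stands in the label of both groups, so the controls also carry the Cre and the treatment. Genotype is not filled in for these libraries. The sources used here give no strain, age, sex, dose or duration. The labels' protocol speaks of 2 numbered studies as the source of the kidneys without saying which kidney came from which. It is also not stated that each library is a separate animal, so p-values measure the spread between these libraries, part of which may be technical.

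Chaperones bind unfolded or partly folded proteins and keep them from aggregating. Heat shock factor 1 (Hsf1) is held inactive by chaperones and, when unfolded proteins draw these away, switches on Hsp70, Hsp110, Hsp90, Hsp40 and small heat shock protein genes. Hsp70 proteins take up clients from J-domain proteins (Hsp40), exchange nucleotide with the help of Hsp110 and Bag proteins, and pass some clients to Hsp90 or to the CCT ring, which folds actin and tubulin. Hspd1 and Hspe1 form the folding chamber of the mitochondrial matrix, while Lonp1 and the Clpx-Clpp pair degrade proteins there. In kidney, heat shock proteins are known to rise after ischaemia and in the hypertonic inner medulla.

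Normalized counts per library, obtained by inverting the deposited log2 scale, summed to between 43039280 and 46676184. Arhgef11 itself did not check the labels: its control mean was 3680 ± 161.6 normalized counts and its Arhgef11Sglt2 mean 3587 ± 564.1 (SD, n = 5 and n = 3, adjusted p = 0.834 in limma), and RNA of the tissue does not show single segments. By library, Arhgef11 had 2935, 3919 and 3905 normalized counts in Arhgef11Sglt2 replicates 1 to 3, against 3479 to 3928 in the controls. Only replicate 1 thus lay below every control, and replicates 2 and 3 lay within their range. Markers of every kidney segment examined were detected. Of 8 proximal tubule markers, 3 (Slc7a13, Lrp2 and Slc34a1) were lower in limma at an adjusted p under 0.05 (background 1.59% of all genes). Only in those 3 did every Arhgef11Sglt2 library lie below every control (background 8.14% of all genes). The summed level of the list was 469800 to 801300 normalized counts in the controls and 265300 to 345200 in the Arhgef11Sglt2 libraries. This sum leans on Kap, whose groups overlapped (means 263535 ± 101967 and 71446 ± 45372, adjusted p = 0.0587 in limma). In bulk tissue, fewer cells of a type and less RNA per cell cannot be told apart. The part of these markers in the results below was not tested. Of the other marker lists, 2 of 3 plasma cell genes were lower at the adjusted threshold in limma (background 1.59%). Retnlg, 1 of 3 neutrophil genes, was higher (background 0.627%), but its level was low (control mean 6.6, Arhgef11Sglt2 mean 33.9). No thick ascending limb marker passed. At an unadjusted limma p under 0.05, 2 of 4 were lower (50%, against 12.1% of all genes). These 2, Slc12a1 (limma adjusted p = 0.0536) and Kcnj1 (0.139), lay below every control in all 3 Arhgef11Sglt2 libraries. Of 4 skeletal muscle markers only Acta1 was listed, at 1.97 to 24.8 normalized counts.

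The question was whether protein folding genes differed between the groups. Several heat shock genes of the cytosol, Hsph1, Chordc1, Stip1 and Ahsa1 among them, had less transcript in replicates 2 and 3 of the Arhgef11Sglt2 group than in any control, while replicate 1 lay within the range of the controls. Hsph1 (Hsp110), the Hsp90 cochaperone Chordc1, and the J-domain protein Dnaja1 had the most negative log2 differences together with Hspa1a, the inducible Hsp70. These differences are on the deposited scale, which compresses genes with few counts. The CCT ring showed log2 differences near 0, and the small heat shock proteins Hspb6 and Hspb8 had positive ones. In a limma model over all 15948 genes, 1 member was past the 0.05 threshold after Benjamini-Hochberg adjustment: Hspa12a, a distant relative of Hsp70, fell 1.55-fold. The background in that direction was 1.59% of all genes, against 2.22% of the 45. No member rose (background 0.627%), and at an unadjusted limma p under 0.05, without correction for the number of genes, 3 members were higher (6.67%, background 9.04%).

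At the same uncorrected level, 13 of the 45 were lower, which is 28.9% against a background of 12.1%. Of the 45 log2 differences 34 were below 0 (75.6%, against 52.1% of all genes). Their median was -0.068, beside -0.007 for all genes. In 6 members every Arhgef11Sglt2 library lay below every control (13.3%, background 8.14%), and in 2 every one lay above (4.44%, background 6.2%). These counts rest on which libraries enter. Without replicate 1 of the Arhgef11Sglt2 group, 11 members were lower at the adjusted threshold in limma, 20 at an unadjusted p under 0.05 and 21 without overlap between the groups. The backgrounds of these 3 counts were then 4.74%, 16% and 18.3%. Without control replicate 4, control replicate 5 or Arhgef11Sglt2 replicate 3, no member passed the adjusted threshold. Of all genes, 0.15%, 0.477% and 0.282% then passed it in either direction. Without control replicate 1 or 2, 1 member was higher at the unadjusted p (background 7.41% and 8.03%). Without Arhgef11Sglt2 replicate 2, 4 members lay above all controls (background 10.8%) and the median log2 difference was -0.026. With library totals made equal, 10 members were lower and 4 higher at the unadjusted p, where all genes split into 9.45% lower and 12.3% higher.

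**Figure D1:**
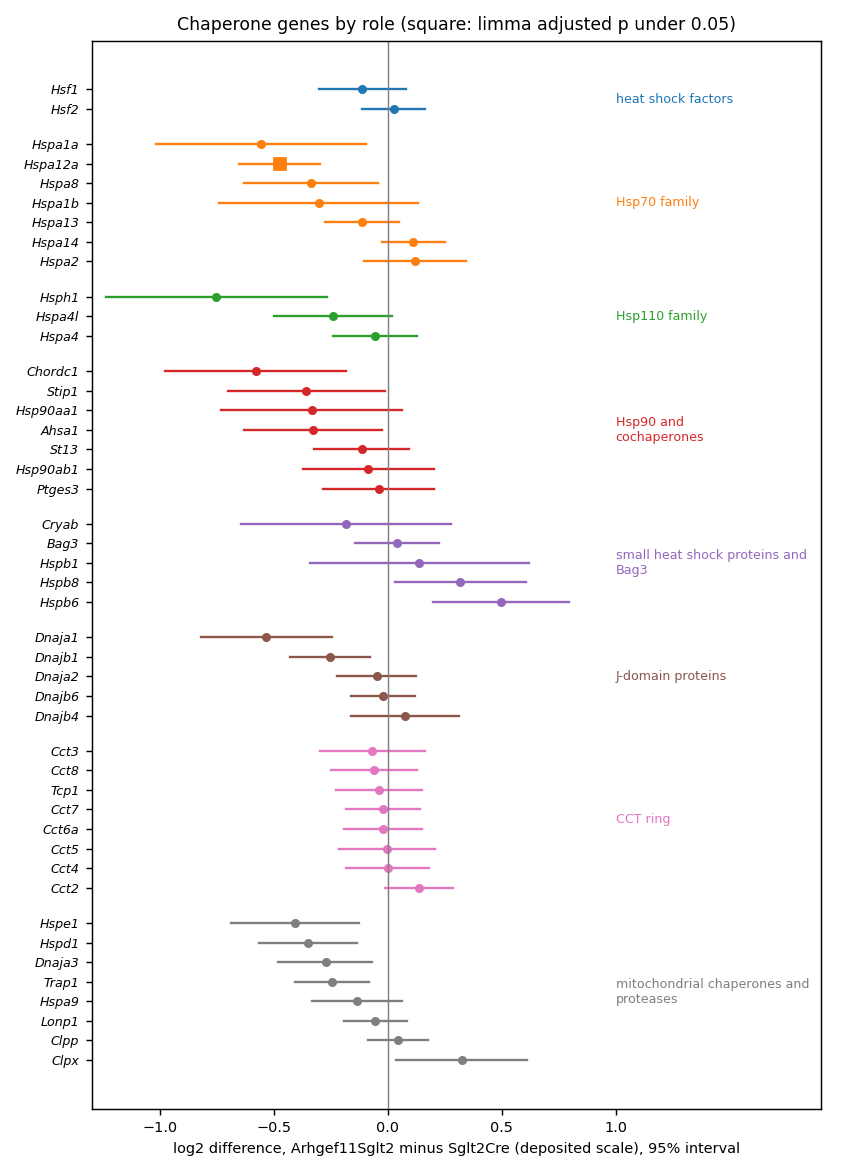
Log2 difference between the groups (horizontal axis, Arhgef11Sglt2 minus Sglt2Cre, on the deposited scale) of the 45 genes, arranged by role; points are limma estimates, lines 95% intervals, and the square marks an adjusted p under 0.05. Hsph1 lies farthest to the left at -0.75 and Hspb6 farthest to the right at 0.50, and the CCT subunits lie between -0.07 and 0.14.

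Neither heat shock factor passed the threshold. Hsf1, the factor that switches on the heat shock genes, had 1252, 1159, 1246, 1215 and 1068 normalized counts in control replicates 1 to 5, and 1296, 938 and 977 in Arhgef11Sglt2 replicates 1 to 3 (log2 difference -0.11 ± 0.09 SE, adjusted p = 0.48 in limma). Hsf1 was thus below every control in replicates 2 and 3 of the Arhgef11Sglt2 group and above every control in replicate 1. Hsf2, a relative of Hsf1 that binds the same elements, had a control mean of 782.7 ± 41.28 and an Arhgef11Sglt2 mean of 805.2 ± 59.73 normalized counts (log2 difference 0.03 ± 0.06 SE, adjusted p = 0.85 in limma).

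Heat shock factors bind inverted repeats of the letters GAA and TTC. The 250 bases before each RefSeq start (GRCm38.p6, another build than the GRCm39 of the submitters' notes) were searched for TTCNNGAA and GAANNTTC. Each motif reads the same on both strands, and overlapping matches were kept. At least 1 match was found in 12 of the 36 members that had a promoter sequence (33.3%), beside 14.5% of all genes. Among textbook targets of heat shock factor it was 8 of 16, and among the other members 4 of 20. Every gene was counted, although Hspd1 and Hspe1 share the same matches and the Hspa1a and Hspa1b windows are nearly identical. The sequences below were chosen among windows that hold a match: those of Hsph1, Dnaja1 and the Hspa1a and Hspa1b pair, of Hspe1 and Hspd1, whose starts face each other, and of Dnajb6, which holds overlapping matches and had a log2 difference of only -0.02. Dnaja1 has 3 RefSeq windows and Hspd1 has 2, and their windows not shown hold no match. They are written 5′ to 3′ on the gene's strand (for the Hspd1 and Hspe1 interval, the strand of Hspe1) with matches in capitals.
Hsph1, chr5:149636337-149636586, minus strand: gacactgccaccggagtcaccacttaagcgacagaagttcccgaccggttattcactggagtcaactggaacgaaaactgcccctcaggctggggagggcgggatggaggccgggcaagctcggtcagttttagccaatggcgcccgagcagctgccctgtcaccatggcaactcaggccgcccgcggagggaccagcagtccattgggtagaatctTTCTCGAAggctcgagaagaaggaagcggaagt
Hspa1a, chr17:34972157-34972406, minus strand: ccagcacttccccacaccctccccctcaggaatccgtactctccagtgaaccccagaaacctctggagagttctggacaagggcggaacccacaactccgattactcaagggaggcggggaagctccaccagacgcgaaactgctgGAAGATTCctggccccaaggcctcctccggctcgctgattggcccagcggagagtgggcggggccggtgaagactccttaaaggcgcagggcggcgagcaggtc
Hspa1b, chr17:34959239-34959488, minus strand: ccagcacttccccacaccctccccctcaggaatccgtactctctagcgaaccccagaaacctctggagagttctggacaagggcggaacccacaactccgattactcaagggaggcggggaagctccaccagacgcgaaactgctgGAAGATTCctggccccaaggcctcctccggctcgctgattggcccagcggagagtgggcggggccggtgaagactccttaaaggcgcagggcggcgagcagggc
Dnaja1, chr4:40722218-40722467, plus strand: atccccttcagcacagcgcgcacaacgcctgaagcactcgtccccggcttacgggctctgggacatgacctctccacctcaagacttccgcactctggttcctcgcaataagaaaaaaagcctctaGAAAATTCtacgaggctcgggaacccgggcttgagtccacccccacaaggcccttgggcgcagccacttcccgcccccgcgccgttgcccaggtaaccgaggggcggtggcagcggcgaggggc
Hspd1 and Hspe1, chr1:55087933-55088147, plus strand: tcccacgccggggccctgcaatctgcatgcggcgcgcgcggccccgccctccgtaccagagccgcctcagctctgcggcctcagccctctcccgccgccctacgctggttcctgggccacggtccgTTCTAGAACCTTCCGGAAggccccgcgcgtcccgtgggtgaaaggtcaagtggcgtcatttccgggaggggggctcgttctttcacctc
Dnajb6, chr5:29735648-29735897, plus strand: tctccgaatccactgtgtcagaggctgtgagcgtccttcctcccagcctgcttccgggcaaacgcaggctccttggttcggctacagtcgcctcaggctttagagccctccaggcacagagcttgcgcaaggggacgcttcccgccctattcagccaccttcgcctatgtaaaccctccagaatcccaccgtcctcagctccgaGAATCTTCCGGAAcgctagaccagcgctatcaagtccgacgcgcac

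The Hspa1a and Hspa1b sequences were identical at 247 of 250 bases. The interval of 215 bases between Hspd1 and Hspe1 held 3 overlapping matches that form 1 run. Matches were also found in Hspb1, Hspb6, Dnajb4, Cct2 and Cct5, whose log2 differences ran from -0.003 (Cct5) to 0.50 (Hspb6). Chordc1, Dnajb1, Stip1, Ahsa1 and Hspa12a had none of these letters in their windows. A match describes letters and is not a measured binding site.

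Among the Hsp70 genes, Hspa12a was the member that passed the threshold. It had 1702, 1812, 1581, 1778 and 1772 normalized counts in control replicates 1 to 5, and 1233, 1188 and 925 in Arhgef11Sglt2 replicates 1 to 3 (log2 difference -0.47 ± 0.08 SE, adjusted p = 0.022 in limma, 95% interval -0.65 to -0.30). All 3 Arhgef11Sglt2 libraries lay below all 5 controls, and the two-sided exact permutation p was 0.0179, the smallest that the 56 splits allow. HSPA12A has a divergent Hsp70 ATPase domain, and its gene is not a classical heat shock gene. The adjusted p was 0.0727 without control replicate 4, 0.0614 without control replicate 5 and 0.064 without Arhgef11Sglt2 replicate 3. The log2 difference was -0.37 among the libraries with the lower numbers in their names (control replicates 1 to 3, Arhgef11Sglt2 replicates 1 and 2). It was -0.69 among the higher-numbered ones (control replicates 4 and 5, Arhgef11Sglt2 replicate 3), where no test was made.

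Hspa8, the constitutive Hsc70 of the cytosol, had 105914, 126783, 108755, 116159 and 111271 normalized counts in control replicates 1 to 5, and 106196, 90544 and 75216 in Arhgef11Sglt2 replicates 1 to 3 (log2 difference -0.34 ± 0.13 SE, adjusted p = 0.183 in limma). Replicates 2 and 3 of the Arhgef11Sglt2 group were below every control, and replicate 1 lay just above the lowest control. Of its 31-base words in GENCODE M21 transcripts, 43.5% also occur in other genes, 38.6% in Gm15459, so its value is uncertain. Hspa1a, a stress-inducible Hsp70, had 1303, 1923, 1316, 1964 and 2780 normalized counts in control replicates 1 to 5, and 1187, 730 and 1367 in Arhgef11Sglt2 replicates 1 to 3 (log2 difference -0.56 ± 0.21 SE, adjusted p = 0.165 in limma). The controls alone spread from 1303 to 2780, and Arhgef11Sglt2 replicate 3 lay above control replicates 1 and 3. Hspa1b, its near-identical neighbour, had 2977, 4001, 2366, 3456 and 4381 normalized counts in control replicates 1 to 5, and 3066, 1814 and 3219 in Arhgef11Sglt2 replicates 1 to 3 (log2 difference -0.30 ± 0.20 SE, adjusted p = 0.403 in limma). Of the words of Hspa1a, 63.8% occur in Hspa1b, and the split of reads between them is uncertain. Their sum had a control mean of 5294 ± 1371 and an Arhgef11Sglt2 mean of 3794 ± 1095 normalized counts (exact permutation p = 0.179).

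None of the other Hsp70 genes passed the threshold. Hspa13, a microsomal Hsp70 without the usual peptide-binding domain, had 1696, 1633, 1911, 1896 and 1772 normalized counts in control replicates 1 to 5, and 1783, 1549 and 1502 in Arhgef11Sglt2 replicates 1 to 3 (log2 difference -0.11 ± 0.07 SE, adjusted p = 0.402 in limma). Hspa14, which works at the ribosome, had 991, 933, 1048, 1001 and 1004 normalized counts in control replicates 1 to 5, and 1101, 1035 and 1206 in Arhgef11Sglt2 replicates 1 to 3 (log2 difference 0.11 ± 0.06 SE, adjusted p = 0.332 in limma). Its 2 highest values were those of Arhgef11Sglt2 replicates 1 and 3, and replicate 2 lay inside the range of the controls. Hspa2, best known from the testis, had 268 to 291 normalized counts in the controls and 244, 495 and 298 in Arhgef11Sglt2 replicates 1, 2 and 3 (log2 difference 0.12 ± 0.10 SE, adjusted p = 0.527 in limma). Replicate 2 stood apart in Hspa2, and without it the log2 difference was -0.03.

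The Hsp110 genes encode nucleotide exchange factors of Hsp70. Hsph1 had 6418, 8766, 6762, 7348 and 9323 normalized counts in control replicates 1 to 5, and 6910, 3843 and 2972 in Arhgef11Sglt2 replicates 1 to 3 (log2 difference -0.75 ± 0.22 SE, adjusted p = 0.0979 in limma). Replicates 2 and 3 of the Arhgef11Sglt2 group were well below the lowest control, and replicate 1 was above control replicates 1 and 3. The group means were 7724 ± 1266 and 4575 ± 2068, a ratio of 1.69, which became 2.27 without Arhgef11Sglt2 replicate 1 (log2 difference -1.06, limma adjusted p = 0.0108). The log2 difference was -0.68 without replicate 2 and -0.52 without replicate 3 (limma adjusted p = 0.192 and 0.34). Hspa4l, the osmotic stress member of this family, had 2657, 3206, 2815, 3318 and 3061 normalized counts in control replicates 1 to 5, and 3178, 2201 and 2121 in Arhgef11Sglt2 replicates 1 to 3 (log2 difference -0.24 ± 0.12 SE, adjusted p = 0.271 in limma). Replicate 1 was again among the controls and the other replicates below them. The limma adjusted p was 0.0326 without replicate 1, 0.51 without replicate 2 and 0.679 without replicate 3. For Hsph1 and Hspa4l, replicate 1 was singled out after its values were seen. Without it, 8.36% of all genes passed the adjusted threshold in either direction. Hspa4, the constitutive member, had 8414 ± 373.7 normalized counts against 8102 ± 976.5 (log2 difference -0.06 ± 0.08 SE, adjusted p = 0.743 in limma).

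Hsp90 and its cochaperones act on clients such as steroid receptors and kinases. Chordc1, a cochaperone of Hsp90 that is itself a heat shock gene, had 2544, 3163, 2716, 3562 and 3344 normalized counts in control replicates 1 to 5, and 2867, 1650 and 1338 in Arhgef11Sglt2 replicates 1 to 3 (log2 difference -0.58 ± 0.18 SE, adjusted p = 0.11 in limma). Ahsa1, the activator of the Hsp90 ATPase, had 3041, 3594, 2958, 3193 and 2994 normalized counts in control replicates 1 to 5, and 3323, 2190 and 1880 in Arhgef11Sglt2 replicates 1 to 3 (log2 difference -0.33 ± 0.14 SE, adjusted p = 0.204 in limma). Stip1, which links Hsp70 to Hsp90, had 3994, 4882, 4136, 4352 and 4171 normalized counts in control replicates 1 to 5, and 4685, 2904 and 2464 in Arhgef11Sglt2 replicates 1 to 3 (log2 difference -0.36 ± 0.15 SE, adjusted p = 0.223 in limma). In all 3 genes replicates 2 and 3 of the Arhgef11Sglt2 group were below every control and replicate 1 was inside the range of the controls. Without replicate 1 the folds were 2.05 for Chordc1, 1.55 for Ahsa1 and 1.61 for Stip1, with limma adjusted p of 0.0116, 0.0162 and 0.0128. Leaving out replicate 2 or replicate 3 instead gave limma adjusted p of 0.222 and 0.387 for Chordc1, 0.383 and 0.619 for Ahsa1 and 0.415 and 0.66 for Stip1. Replicate 1 was singled out after its values were seen.

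Hsp90aa1, the inducible cytosolic Hsp90, had 19120, 26110, 20290, 22653 and 22375 normalized counts in control replicates 1 to 5, and 24894, 13892 and 14961 in Arhgef11Sglt2 replicates 1 to 3 (log2 difference -0.34 ± 0.18 SE, adjusted p = 0.312 in limma). Replicate 1 exceeded 4 of the 5 controls, and the other Arhgef11Sglt2 libraries were below all of them. Without replicate 1, which was singled out here too after its values were seen, the ratio was 1.53 (limma adjusted p = 0.0248). Without replicate 2 or 3 the limma adjusted p was 0.639 or 0.701. Hsp90ab1, the constitutive Hsp90, had a control mean of 49237 ± 4181 and an Arhgef11Sglt2 mean of 46745 ± 8630 normalized counts (log2 difference -0.09 ± 0.13 SE, adjusted p = 0.747 in limma), with replicate 1 above every control. Of the words of Hsp90aa1 51.4%, and 13.2% of those of Hsp90ab1 occur in other genes. St13, which binds Hsp70, and Ptges3 (p23), which closes the Hsp90 cycle, had log2 differences of -0.12 and -0.04 (limma adjusted p = 0.515 and 0.871). For Ptges3 replicate 1 was above every control and replicates 2 and 3 were below every control. Of its words 20.6% occur in other genes, 20.3% in Ptges3-ps.

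**Figure D2:**
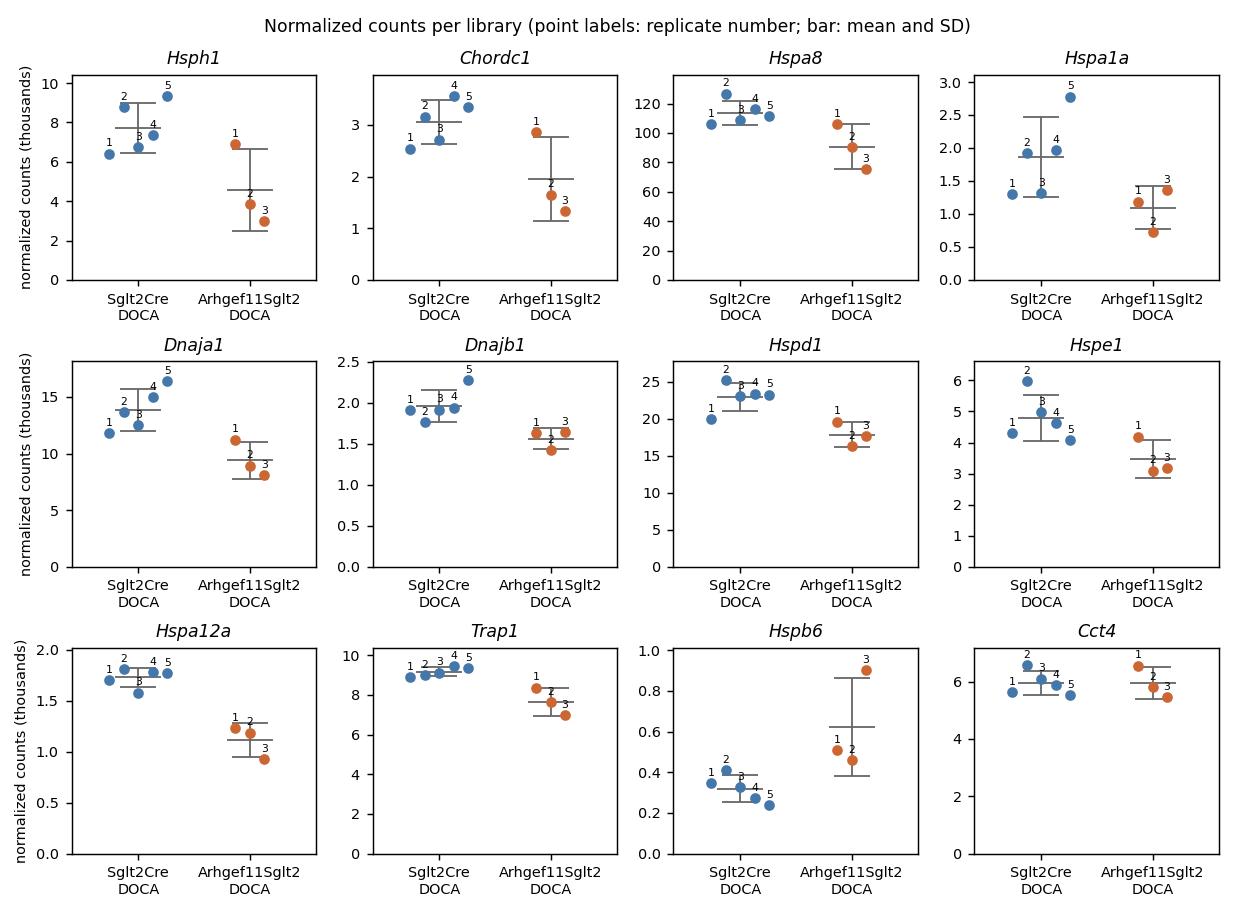
Normalized counts divided by 1000 (vertical axes, from 0) of 12 genes in each of the 5 Sglt2Cre DOCA and 3 Arhgef11Sglt2 DOCA libraries; numbers beside the points are replicates, and bars are the mean and SD. Arhgef11Sglt2 replicates 2 and 3 lie below all controls for Hsph1, Chordc1, Hspa8 and Hspe1, where replicate 1 lies within their range, whereas for Hspa12a and Trap1 all 3 are below.

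J-domain proteins bring clients to Hsp70 and stimulate its ATPase. Dnaja1 had 11794, 13628, 12490, 15008 and 16360 normalized counts in control replicates 1 to 5, and 11234, 8934 and 8090 in Arhgef11Sglt2 replicates 1 to 3 (log2 difference -0.53 ± 0.13 SE, adjusted p = 0.0647 in limma). Every Arhgef11Sglt2 library lay below every control, although replicate 1 was close to control replicate 1, and the exact permutation p was 0.0179. Of the words of Dnaja1 13.4% occur in other genes, 11.2% in Gm15542. Dnajb1, the main stress-inducible J-domain protein, had 1908, 1765, 1918, 1942 and 2278 normalized counts in control replicates 1 to 5, and 1627, 1420 and 1647 in Arhgef11Sglt2 replicates 1 to 3 (log2 difference -0.25 ± 0.08 SE, adjusted p = 0.114 in limma). Its groups also did not overlap. Dnaja2, Dnajb4 and Dnajb6 had log2 differences of -0.05, 0.08 and -0.02, with limma adjusted p of 0.758, 0.725 and 0.89. Dnajb6 had 3246, 3627, 3682, 3640 and 3681 normalized counts in control replicates 1 to 5, and 3588, 3474 and 3488 in Arhgef11Sglt2 replicates 1 to 3. Control replicate 1 alone stood below the other libraries there. Other genes hold 19% of the words of Dnajb6.

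The small heat shock proteins hold unfolded proteins without using ATP, and Bag3 links Hspb8 to Hsp70. Of these 5 genes, 4 had positive log2 differences. Hspb6, a small heat shock protein of muscle, had 348, 410, 328, 274 and 239 normalized counts in control replicates 1 to 5, and 508, 462 and 902 in Arhgef11Sglt2 replicates 1 to 3 (log2 difference 0.49 ± 0.13 SE, adjusted p = 0.0836 in limma). All 3 Arhgef11Sglt2 libraries were above all controls, replicate 3 by the most. In normalized counts the Arhgef11Sglt2 mean was 1.95 times the control mean. Of 5 smooth muscle markers none passed the threshold, and all 5 log2 differences were negative. The part of these markers in the Hspb6 values was not tested. Hspb8 had 495, 316, 557, 614 and 448 normalized counts in control replicates 1 to 5, and 922, 588 and 616 in Arhgef11Sglt2 replicates 1 to 3 (log2 difference 0.32 ± 0.13 SE, adjusted p = 0.196 in limma). Replicate 1 was the highest library for Hspb8, and replicate 2 lay below control replicate 4.

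Hspb1 (Hsp25 in the mouse) had 634, 757, 619, 854 and 658 normalized counts in control replicates 1 to 5, and 1602, 470 and 639 in Arhgef11Sglt2 replicates 1 to 3 (log2 difference 0.14 ± 0.22 SE, adjusted p = 0.758 in limma). Replicate 1 was far above the highest control, and without it the log2 difference was -0.21. Of the words of Hspb1 52.3% occur in a pseudogene, Hsp25-ps1. Cryab, alpha-B crystallin, which is abundant in the inner medulla, had 4342, 4678, 3452, 3644 and 4290 normalized counts in control replicates 1 to 5, and 5282, 2158 and 3706 in Arhgef11Sglt2 replicates 1 to 3 (log2 difference -0.18 ± 0.21 SE, adjusted p = 0.653 in limma). Here too replicate 1 was the highest library and replicate 2 the lowest. Collecting duct and inner medulla markers summed to 19300 to 26280 normalized counts in the controls and 16400 to 25840 in the Arhgef11Sglt2 libraries. Of these 10 markers 0 passed the threshold, and 3 were lower at an unadjusted limma p under 0.05 (30%, against 12.1% of all genes). In Arhgef11Sglt2 replicates 1, 2 and 3, 60%, 90% and 70% of them were below their control mean. All genes gave 49.6%, 53.4% and 53.4%. The part of these markers in the Cryab values was not tested. Bag3 had 1674 ± 200.7 against 1726 ± 97.16 normalized counts (log2 difference 0.04 ± 0.08 SE, adjusted p = 0.827 in limma), and all 3 Arhgef11Sglt2 libraries lay inside the range of the controls.

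The CCT ring has 8 different subunits, all measured. Their log2 differences ran from -0.07 (Cct3) to 0.14 (Cct2), with a median of -0.02, and the lowest limma adjusted p was 0.278. Cct2 had 6324, 6993, 6793, 6705 and 6381 normalized counts in control replicates 1 to 5, and 7094, 7137 and 7830 in Arhgef11Sglt2 replicates 1 to 3 (log2 difference 0.14 ± 0.07 SE, adjusted p = 0.278 in limma). Its Arhgef11Sglt2 libraries were above all controls by a small margin. The 95% intervals of the other 7 subunits lay within -0.30 and 0.21. With totals made equal, the log2 differences of Cct4, Cct5, Cct6a and Cct7 turned positive. In Cct3, Cct5 and Cct8, replicate 1 was above every control and replicates 2 and 3 were below every control. For Cct5 these values were 7935, 6076 and 6167 normalized counts, against 6265 to 7077 in the controls.

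Of the 8 mitochondrial genes, 6 had negative differences and none passed the threshold (median -0.19). Hspd1 (Hsp60) had 19885, 25211, 22992, 23380 and 23232 normalized counts in control replicates 1 to 5, and 19577, 16326 and 17618 in Arhgef11Sglt2 replicates 1 to 3 (log2 difference -0.35 ± 0.10 SE, adjusted p = 0.0864 in limma). Hspe1 (Hsp10), its partner, had 4312, 5967, 4990, 4626 and 4087 normalized counts in control replicates 1 to 5, and 4191, 3097 and 3169 in Arhgef11Sglt2 replicates 1 to 3 (log2 difference -0.41 ± 0.13 SE, adjusted p = 0.112 in limma). The groups did not overlap for Hspd1, and for Hspe1 replicate 1 lay above control replicate 5 only. Other genes, pseudogenes among them, hold 50.1% of the words of Hspd1 and 24.8% of those of Hspe1.

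Trap1, the mitochondrial Hsp90, had 8901, 9007, 9117, 9452 and 9353 normalized counts in control replicates 1 to 5, and 8366, 7640 and 6965 in Arhgef11Sglt2 replicates 1 to 3 (log2 difference -0.25 ± 0.07 SE, adjusted p = 0.102 in limma). Dnaja3, the J-domain protein of the matrix, had 4967, 5820, 5250, 5206 and 4977 normalized counts in control replicates 1 to 5, and 4606, 4624 and 3564 in Arhgef11Sglt2 replicates 1 to 3 (log2 difference -0.27 ± 0.09 SE, adjusted p = 0.137 in limma). In both genes every Arhgef11Sglt2 library lay below every control, replicate 1 included (exact permutation p = 0.0179 for each). Hspa9 (mortalin), the Hsp70 of the matrix, had 30838 ± 1095 normalized counts against 28084 ± 2921 (log2 difference -0.14 ± 0.09 SE, adjusted p = 0.406 in limma), with replicate 1 the lowest library at 25226.

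The matrix proteases had log2 differences from -0.06 to 0.32. Clpx, the unfoldase of the Clp protease, had 4032, 3694, 4333, 5306 and 4785 normalized counts in control replicates 1 to 5, and 4627, 5805 and 6659 in Arhgef11Sglt2 replicates 1 to 3 (log2 difference 0.32 ± 0.13 SE, adjusted p = 0.189 in limma). Replicates 2 and 3 were above every control, and controls 4 and 5 were above controls 1 to 3. Its peptidase Clpp had 1548 ± 74.39 against 1612 ± 28.98 normalized counts, and Lonp1 had 5961 ± 217 against 5718 ± 192.2 (log2 differences 0.04 and -0.06, limma adjusted p = 0.704 and 0.654).

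**Figure D3:**
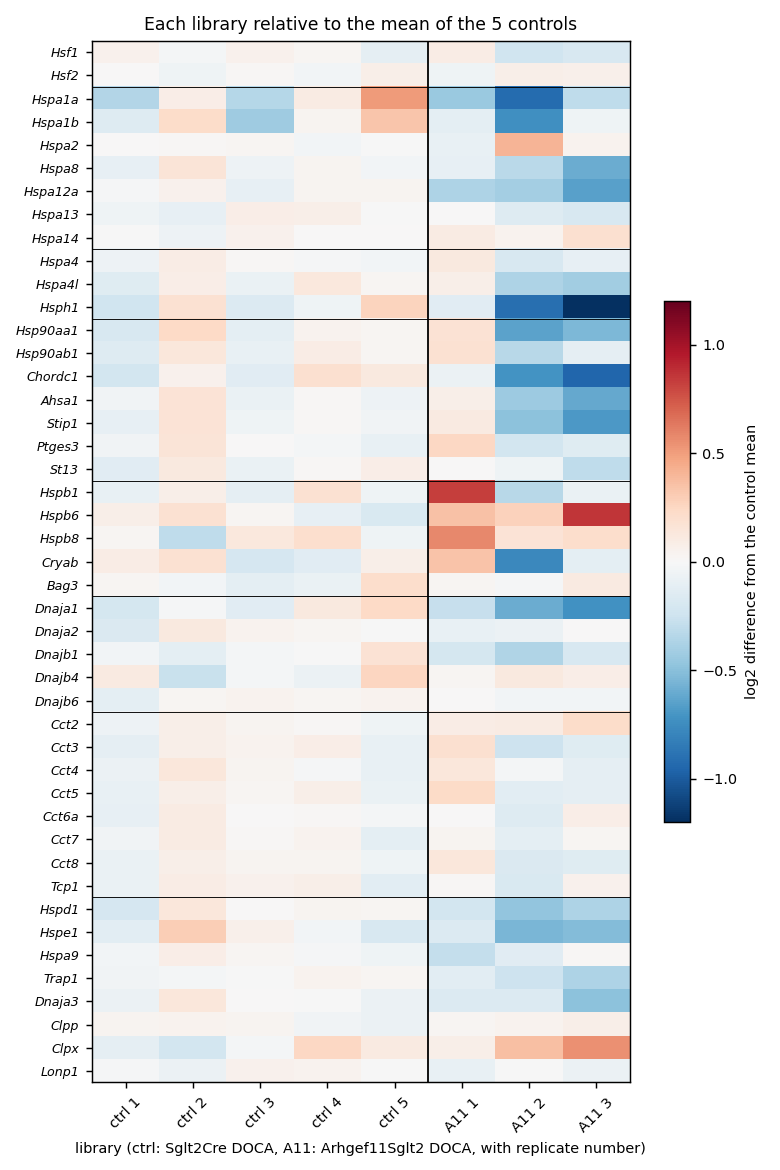
Log2 difference of each library from the mean of the 5 controls (colour, from -1.2 blue to 1.2 red) for the 45 genes in rows, separated by role, and the 8 libraries in columns (ctrl for Sglt2Cre DOCA, A11 for Arhgef11Sglt2 DOCA). Blue cells gather in A11 replicates 2 and 3 for Hsph1, Chordc1, Stip1 and Dnaja1, while A11 replicate 1 is red for Hspb1, Hspb8 and Cryab.

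The 20 members that are textbook targets of heat shock factor and the other 25 were then set side by side by library. The mean log2 difference of the 20 targets from the control mean ran from -0.11 to 0.09 in the controls. It was 0.04, -0.44 and -0.36 in Arhgef11Sglt2 replicates 1, 2 and 3. Thus 18 of the 20 were below their control mean in replicate 2 and 17 in replicate 3, but 9 in replicate 1. Of all genes, 53.4% were below their control mean in replicate 2, 53.4% in replicate 3 and 49.6% in replicate 1. For the other 25 members the same means were 0.02, -0.06 and -0.03, with controls from -0.05 to 0.04. The targets had a median log2 difference of -0.32, which was -0.43, -0.19 and -0.21 without Arhgef11Sglt2 replicates 1, 2 and 3. The targets were listed with earlier results of these data known, so the contrast between the lists is a description.

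Related protein folding genes outside the 45 gave the following counts, none past the adjusted threshold in limma. Among 31 other cytosolic cochaperones, 3 were lower (9.68%, against 12.1% of all genes) and 2 higher (6.45%, against 9.04%) at an unadjusted p under 0.05. Fkbp4, an immunophilin that works with Hsp90, had 9119 ± 281.4 against 6569 ± 1570 normalized counts (limma adjusted p = 0.0736). Dnajc13, an endosomal J-domain protein, had 10992 ± 785.8 against 7721 ± 2148 (limma adjusted p = 0.0945). Of 9 prefoldin and CCT partner genes none reached an unadjusted p of 0.05. Of 22 further genes of mitochondrial protein import and quality control, 2 were lower at that level (9.09%), the disaggregase Clpb (limma adjusted p = 0.101) and the protease Spg7 (limma adjusted p = 0.101). Of 31 proteasome subunits 4 were higher at that level (12.9%, against 9.04% of all genes) and none lower. The lowest p was that of the ubiquitin receptor Psmd4 (log2 difference 0.24, limma adjusted p = 0.123).

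Chaperones of the endoplasmic reticulum, which answer to another stress pathway, also had low means in Arhgef11Sglt2 replicates 2 and 3. Of 16, 10 were lower at an unadjusted p under 0.05 (limma; 62.5%, against 12.1% of all genes) and none passed the adjusted threshold, where the lowest value was 0.132 for Dnajc3. The median log2 difference was -0.46. Hspa5 (BiP), chosen after its values were seen, had 26135, 42039, 27439, 33460 and 26870 normalized counts in control replicates 1 to 5. It had 33586, 14158 and 10585 in Arhgef11Sglt2 replicates 1 to 3 (limma adjusted p = 0.178). The list mean was 0.07, -0.57 and -0.66 in those replicates, and it was highest in control replicate 2 (0.32).

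Cirbp and Rbm3, RNA-binding proteins known to rise at low temperature, were looked at in the list of clock and cold-inducible genes and singled out after their values were seen. Cirbp had 1147, 1111, 1029, 1043 and 1076 normalized counts in control replicates 1 to 5, and 827, 2036 and 3873 in Arhgef11Sglt2 replicates 1 to 3 (limma adjusted p = 0.249). Rbm3 had 6345, 4683, 4476, 4746 and 4900 in the controls and 3966, 9538 and 12793 in Arhgef11Sglt2 replicates 1 to 3 (adjusted p = 0.256 in limma). Replicates 2 and 3 were above every control in both genes and replicate 1 below every control. Of 9 immediate early genes, Zfp36 was higher at the adjusted threshold in limma (1.34-fold, adjusted p = 0.0467, background 0.627%). At an unadjusted limma p under 0.05, 5 were higher (55.6%, against 9.04% of all genes), and all 9 log2 differences were positive. The list mean was 0.27, 0.19 and 0.64 in Arhgef11Sglt2 replicates 1 to 3. The part of any of these lists in the chaperone values was not tested.

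**Figure D4:**
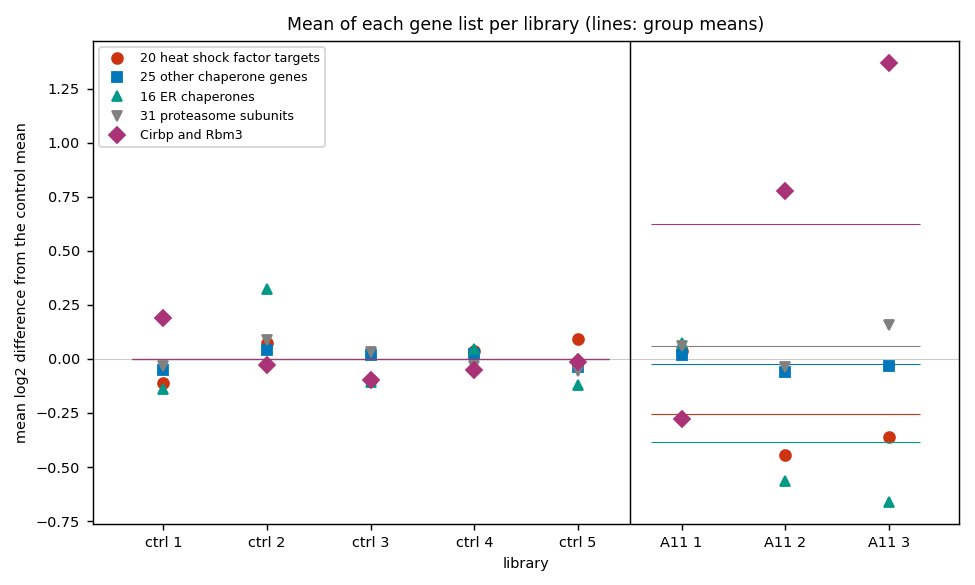
Mean log2 difference from the control mean (vertical axis) of 5 gene lists in each library (horizontal axis; ctrl for Sglt2Cre DOCA, A11 for Arhgef11Sglt2 DOCA), with group means as lines. In A11 replicates 2 and 3 the heat shock factor targets lie at -0.44 and -0.36 and Cirbp with Rbm3 at 0.78 and 1.37, while A11 replicate 1 has 0.04 and -0.28.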

How the data were processed

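The values the authors deposited are log2 expression after variance stabilization, as judged from the numbers: every library has the same lowest value, 8.1275 (279.7 before the logarithm), which stands for a zero count. The authors used Salmon 1.10.0, DESeq2 (version not stated) and build GRCm39, per the submitters' processing notes. The sources used here do not give the annotation or gene filter. Normalized counts were obtained by inverting the transformation's closed form. Read depth before scaling was not used. Folds are ratios of mean normalized counts, while log2 differences, SEs and tests are on the deposited scale, which compresses low genes.

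limma 3.58.1 in R 4.3.3 was fitted to all 15948 genes and 8 libraries with group as the only term, a mean-variance trend in the empirical Bayes step, and Benjamini-Hochberg adjusted p-values at 0.05. Exact permutation tests were two-sided over 56 splits. The procedure was tested on simulated data. Symbols matched 15902 identifiers (99.71%). Values in every library were given for the members past the threshold, those with the smallest p up to 22, and any with 1 library apart; of other lists, genes past the threshold and up to 2 more per list. Hsf1, Hspb1, Cryab, Hspa5, Cirbp and Rbm3 were added after their values were seen. Members and lists were chosen with earlier results of these data known. Protein sequences were not used here, so copies were compared by shared 31-base words of GENCODE M21 transcripts. The alternatives tried concerned the filter, model terms, variance shrinkage, weights, pseudocounts of 1 and 10, scaling, library number ranges and each library left out.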

Additional observations from a re-analysis of the deposited data

Results flagged for a closer look

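Among the 45 genes, 1 had a control library far from the other controls. Dnajb6 had 3246 normalized counts in control replicate 1, against 3627 to 3682 in the other controls. The gap to the nearest control was 0.881 of the range of the group, above the critical value of 0.71 for 5 samples. Chance gives a gap above 0.71 in about 1 of 20 groups, and 45 were examined.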

How the results depend on the processing

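Hspa12a was lower under every alternative tried. Without 1 library at a time, the count of members lower at the adjusted threshold ranged from 0 to 11, of those lower at the unadjusted one from 9 to 20 and of those higher there from 1 to 3. Members without overlap ranged from 6 to 21 below and from 2 to 4 above the controls, and the median log2 difference of the 45 from -0.176 to -0.026. The shares of all genes moved too. From 0.15% to 8.36% passed the adjusted threshold in either direction. At the unadjusted one 7.47% to 16% were lower and 5.27% to 12.6% higher. Without overlap, 9.04% to 18.3% lay below and 7.2% to 14.8% above the controls. With sample weights 8 members were lower at the adjusted threshold (17.8%, where 5.48% of all genes passed in either direction) and the median was -0.131. The lower-numbered libraries (control replicates 1 to 3, Arhgef11Sglt2 replicates 1 and 2) gave 0 members at the adjusted threshold, where 0 of all genes passed. They gave 5 members lower at the unadjusted one (background 5.98%) and 4 above all controls (background 13%). The higher-numbered ones, with 1 Arhgef11Sglt2 library, gave 29 members below and 9 above both controls, where 45.1% of all genes lay below and 38.6% above, with a median of -0.135. Centring on the median left 1 member above all controls (background 5.74%). The cause of these shifts was not tested, and the subsets also hold fewer libraries.

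With the replicate number as a block, 0 members and 0 of all genes passed the adjusted threshold. At the unadjusted one 5 members were lower (background 8.15%). Hspa12a had a log2 difference of -0.455 (limma adjusted p = 0.198). The numbers do not pair the libraries: deviations of same-numbered libraries correlated at -0.175, -0.088 and -0.007.

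Signs turned only in members that did not pass the threshold, most with values near 0. Their log2 differences after turning are given in parentheses. Among the lower-numbered libraries the members that turned were St13 (0.009), Dnajb6 (0.006), Cct4 (0.018), Cct5 (0.047) and Clpp (-0.004). With sample weights the member that turned was Hspb1 (-0.125). Among the higher-numbered libraries the members that turned were Hspb1 (-0.145), Dnajb4 (-0.012), Cct6a (0.086), Cct7 (0.059), Tcp1 (0.082) and Hspa9 (0.043). With a replicate block the member that turned was Dnajb6 (0.001). With totals made equal the members that turned were Dnajb6 (0.014), Cct4 (0.034), Cct5 (0.032), Cct6a (0.015) and Cct7 (0.014). With each library centred on its median the member that turned was Cct4 (0). Without 1 library at a time, such members ranged as follows: Hspa2 -0.026 to 0.223, Hspa4 -0.145 to 0.011, Hsp90ab1 -0.222 to 0.038, Ptges3 -0.186 to 0.051, Hspb1 -0.208 to 0.374, Cryab -0.445 to 0.113, Cct3 -0.197 to 0.024, Cct4 -0.067 to 0.053, Cct5 -0.119 to 0.059, Cct6a -0.073 to 0.044, Cct7 -0.049 to 0.029, Tcp1 -0.084 to 0.035.

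With totals made equal, 9.45% of all genes were lower and 12.3% higher at an unadjusted p under 0.05, against 12.1% and 9.04% before. Read depth could not be used, so the precision of low genes is not known beyond the spread between libraries.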
